A study of Mus musculus with 4 samples.

Results

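The genes described here are 34 genes of vascular endothelium and angiogenesis, the growth of new vessels, in 2 epithelial structures of the fetal mouse kidney. They were taken by name: every probe set (a group of short probes against 1 transcript) whose gene symbol was 1 of the 34 names was used. This gave 62 probe sets of the 45037 that were not controls, for 34 of 18193 genes. Another 2 probe sets that carry the symbols of Ramp2 and Vps25 together were left out.

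The structures were cut by laser from frozen sections of wild-type CD-1 kidneys at E15.5, counted in embryonic days (Theiler stage 23). CD-1 is an outbred stock, and the sex of the fetuses is unknown. One group is the cortical collecting duct, a branched epithelium that will carry urine, with 1 array, numbered 3. The other is the loop of Henle anlage, the early form of the nephron's looped segment, with 3 arrays, numbered 1 to 3. For each array about 50 sections from 5 kidneys were pooled and the RNA was amplified over 2 rounds. Nothing says whether the pools came from separate litters, so the spread between arrays may be partly technical.

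Endothelial cells line blood vessels. Vascular endothelial growth factors (VEGFs), secreted largely by neighbouring epithelium and podocytes in the kidney, act on the receptors Kdr, Flt1 and Flt4 of these cells. Angiopoietins act on the receptor Tek, with Tie1 as its partner. ETS, SOX and GATA-type transcription factors establish and keep the endothelial program. In the kidney, capillaries run closely along the tubules.

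Lower values of endothelial genes in the collecting duct array were the main pattern, but no single gene passed the test. Values are log2 of the normalized signal plus an offset of 109.6 signal units, which understates the change of genes with low signal. A gene was tested where its mean over the 4 arrays reached 8.416, the 40th percentile of all probe sets, and below this it is called dim. Of the 34 members 31 were tested, and for 28 of them the collecting duct value was under the anlage mean, as it was for 54.9% of all 12642 genes tested. The collecting duct value lay below all 3 anlage values for 20 of the 31, against 24.3% of all genes tested. Aplnr and Eng are among the 20 by very small margins, at 13.5454 against 13.553 in anlage array 1 and at 9.8908 against 9.8925 in anlage array 3. The collecting duct value lay above all 3 for 1 member, Angpt1, against 17.3% of all genes tested. The median difference of the members was −0.89 and that of all genes tested was −0.06 on the log2 scale.

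The fit with limma across all genes called 0 of the 31 members, and 0 of 12642 genes (0%), higher or lower at an adjusted p of 0.05. Before adjustment, 4 members had a lower value at p under 0.05 (Tek, Kdr, Clec14a and Mmrn2), where 2.23% of all genes did, and 1 had a higher value (Angpt1), where 1.18% did. Tek and Clec14a lay under 8.416 in the collecting duct, at 8.25 and 7.52, and reached the filter through their anlage values. So did Emcn, Sox7 and Vegfb. They were tested only through the group where they are high, so no support is drawn from their p-values. All of them are among the 28 and the 20 members counted above, and in the counts by role below. The filter fixed that their value was under the anlage mean, so no support is drawn from their place in those counts. The same holds for tested genes of the lists below that lie under 8.416 in the collecting duct. Without anlage array 1 the median difference of the members was −1.36, when that of all genes tested was −0.19. Without anlage array 3 it was −0.81, when that of all genes tested was −0.03. The smallest p that an exact permutation of 1 array against 3 allows is 0.25, so none was computed. In captured tissue, fewer cells of a type and less RNA per cell cannot be told apart.

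Marker lists of both labelled structures were read in the arrays. These lists were chosen with earlier results of these data known, so they describe the arrays and are no independent check. All 10 of 10 collecting duct markers lay above all 3 anlage arrays, as did 17.3% of all genes tested. Differences were 4.11, 4.11, 3.53 and 3.50 for Scnn1g, Elf5, Gata3 and Wnt9b. All 10 of 10 loop markers lay below all 3, as did 24.3% of all genes tested. Differences were −5.52, −5.20, −3.87 and −3.85 for Kcnj1, Umod, Irx2 and Slc12a1. The ratio of 3′ to 5′ signal of Gapdh, which grows as RNA is shortened, was 12.05 in the collecting duct. It was 10.3, 54.1 and 26.0 in anlage arrays 1, 2 and 3. Of the 31 tested members 22 had their lowest anlage value in array 1, the array with the lowest such ratio, as did 52.7% of all genes tested. The part of RNA length in the differences was not tested.

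**Figure D1:**
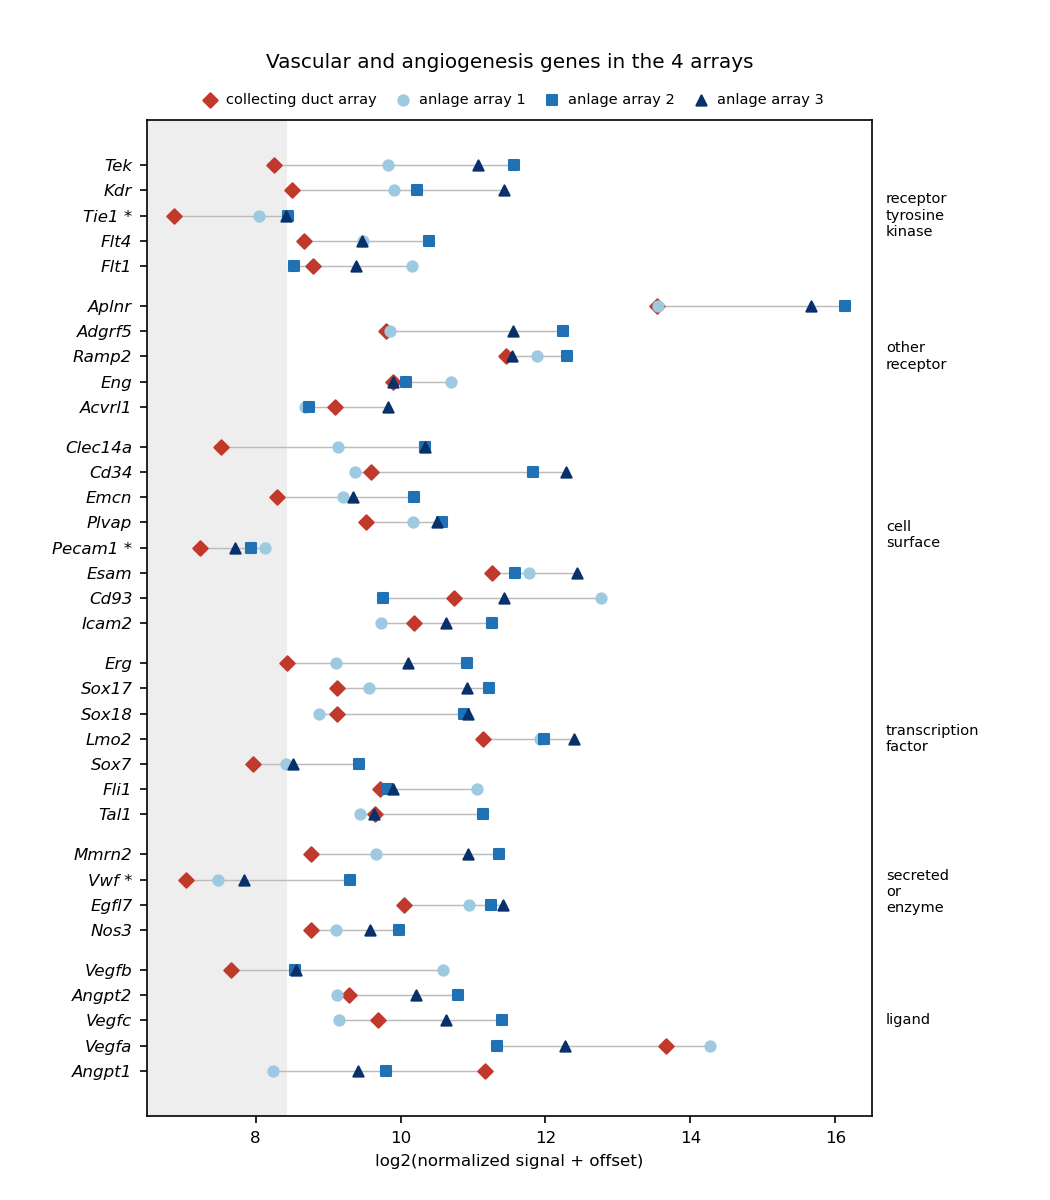
Values of all 34 members in each array, as log2 of the normalized signal plus the offset, 1 row per gene and 1 symbol per array, ordered within each role by the difference. Grey marks the range under 8.416, and an asterisk marks the 3 genes that were dim and not tested. The collecting duct symbol is the leftmost in most rows, and anlage array 1 often lies nearest to it.

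The start regions of the members furthest below the anlage are shown, since these genes share an endothelial program driven in part by ETS factors such as Erg and Fli1. Sequences are from RefSeq on build GRCm38.p6. The table matched 16 of the 34 members with 23 start sites, and the 250 bases before each start were searched on both strands for the ETS strings CAGGAAG and CCGGAAG. A match was found in 6 of 23 windows (26.1%), those of Cd34, Egfl7 (2 of its 3 starts), Emcn, Erg and Adgrf5, against 17.0% of all 32851 windows. CAGGAAG gave all 6 of these, and 10.8% of all windows hold it, while CCGGAAG was in 0 of 23 against 6.91% of all. The GATA string AGATAA was in 3 of 23 windows against 9.99% of all, and the SOX string AACAAT in 3 against 9.42%. The string ACGTG, bound by hypoxia-inducible factors, was in 2 against 16.6%. The median share of G and C bases was 58.4% in the member windows and 52.4% in all windows. The percentages of windows were not adjusted for this. The windows of Tek (chr4:94739039-94739288, plus strand), Kdr (chr5:75978456-75978705, minus strand) and Clec14a (chr12:58269259-58269508, minus strand) held neither ETS string. That of Emcn (chr3:137340828-137341077, plus strand), shown for contrast, holds 1, in capitals, which begins 174 bases before the start and reads as the reverse complement of CAGGAAG. Each runs 5′ to 3′ in the direction of the gene. A match is a string of letters and not a shown binding site.
Tek: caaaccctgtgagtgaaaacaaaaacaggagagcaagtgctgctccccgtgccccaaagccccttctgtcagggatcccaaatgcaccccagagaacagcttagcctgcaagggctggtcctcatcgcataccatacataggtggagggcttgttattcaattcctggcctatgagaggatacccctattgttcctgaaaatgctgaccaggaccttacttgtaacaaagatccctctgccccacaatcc
Kdr: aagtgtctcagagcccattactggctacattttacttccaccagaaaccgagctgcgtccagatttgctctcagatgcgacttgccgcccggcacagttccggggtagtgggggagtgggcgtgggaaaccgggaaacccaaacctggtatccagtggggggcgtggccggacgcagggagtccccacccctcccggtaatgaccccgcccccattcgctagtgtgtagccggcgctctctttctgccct
Clec14a: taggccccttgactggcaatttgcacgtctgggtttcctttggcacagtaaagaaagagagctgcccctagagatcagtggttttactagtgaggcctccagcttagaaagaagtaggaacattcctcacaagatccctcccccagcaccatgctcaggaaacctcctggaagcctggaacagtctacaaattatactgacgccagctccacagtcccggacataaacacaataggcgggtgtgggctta
Emcn: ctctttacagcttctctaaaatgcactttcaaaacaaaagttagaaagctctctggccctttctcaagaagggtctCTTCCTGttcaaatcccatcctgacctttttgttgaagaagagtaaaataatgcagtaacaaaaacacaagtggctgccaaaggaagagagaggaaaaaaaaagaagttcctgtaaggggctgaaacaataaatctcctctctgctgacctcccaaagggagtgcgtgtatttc

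Among the receptor tyrosine kinases that were tested, Tek and Kdr were furthest below the anlage. Tek, the angiopoietin receptor whose start region is printed above, stood at 8.25 in the collecting duct. In the anlage it stood at 9.83, 11.57 and 11.07 (arrays 1, 2 and 3, the order used throughout). As deposited, its signal was 201.8 units against 1019, 2867 and 1974 units. The groups did not overlap, and the difference was −2.57 ± 0.78 (SE) on the log2 scale, a 5.94-fold lower value. Kdr, the main signalling receptor for Vegfa, stood at 8.50 against 9.91, 10.22 and 11.42, which is −2.02 ± 0.73 (SE) and again without overlap. Array 3 was the highest for Kdr, while array 2 was the highest for Tek. Neither gene passed (limma, adjusted p = 1.00 for each).

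The other receptors of this class were lower in the collecting duct by value, Flt1 with overlap. Flt4, the receptor for Vegfc, stood at 8.67 against 9.48, 10.39 and 9.46, below all 3 anlage arrays by 1.11 ± 0.61 (SE) on average. Its second probe set, at 8.72 against 9.01, 8.80 and 8.56, overlapped the anlage. Flt1, a receptor that also binds Vegfa and limits its action, stood at 8.79 against 10.16, 8.53 and 9.39. The collecting duct value lay inside the anlage range, and the 4 probe sets of Flt1 differed by −0.96 to 0.16. Tie1 was dim, at 6.87 against 8.04, 8.45 and 8.41, and was lowest in the collecting duct, where its deposited signal was 7.38 units against 129.2 to 224.3 units in the anlage. Its difference of −1.43 rests on the offset and was −3.22 with an offset of 16, when that of Tek was −3.01 and that of Kdr −2.34.

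Among the other receptors 4 of 5 were lower in the collecting duct by value, against 54.9% of all genes tested, and none was called. Aplnr, the apelin receptor of sprouting and venous endothelium, stood at 13.55 in the collecting duct and at 13.55, 16.13 and 15.67 in the anlage. The collecting duct and anlage array 1 were nearly equal, and the difference of −1.57 ± 0.97 (SE) came from arrays 2 and 3. In its second probe set, at 9.60 against 9.41, 12.64 and 11.80, arrays 2 and 3 were again the highest and the collecting duct lay above array 1. Adgrf5, an adhesion receptor of capillary endothelium, was also near array 1 and under arrays 2 and 3, at 9.80 against 9.86, 12.25 and 11.55. Without anlage array 1 the differences were −2.32 for Aplnr and −2.26 for Adgrf5, and without array 2 they were −1.10 and −0.84.

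Receptor components of the adrenomedullin and TGF-beta-family pathways were close in the probe sets used. Ramp2, which turns the calcitonin-like receptor into an adrenomedullin receptor, stood at 11.45 against 11.89, 12.29 and 11.54 and differed by −0.45 ± 0.55 (SE). Eng, a co-receptor for BMP9 and related ligands, stood at 9.89 against 10.70, 10.07 and 9.89, so that the collecting duct and array 3 were level. Its second probe set ran the other way within the anlage, at 9.50 against 8.73, 11.06 and 10.42. Acvrl1, the type I receptor that works with Eng, stood at 9.09 against 8.68, 8.74 and 9.83. Its difference was 0.01 ± 0.65 (SE), and the sign turned in 4 alternative settings. The second probe set of Acvrl1, at 8.35 against 9.14, 8.97 and 8.60, lay below all 3 anlage arrays, with a difference of −0.55.

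The collecting duct value was under the anlage mean for all 7 tested cell surface genes, and under all 3 anlage arrays for 4. The shares of all genes tested were 54.9% and 24.3%. Clec14a, a C-type lectin of sprouting endothelium, stood at 7.52 against 9.14, 10.34 and 10.33. In this probe set, the one used, the groups did not overlap, and the difference was −2.42 ± 0.68 (SE), a 5.35-fold lower value. The collecting duct value was in the dim range, so the size of the difference depended on the offset. It ran from −3.29 to −1.50 over the settings. The second probe set of Clec14a was dim and overlapped the anlage, at 7.54 against 7.32, 9.16 and 9.13. There the collecting duct lay above array 1, and the difference was −0.998. Emcn, the sialomucin endomucin of capillaries and veins, stood at 8.29 against 9.21, 10.19 and 9.35, a difference of −1.29 ± 0.60 (SE) without overlap. Plvap, which forms the diaphragms of fenestrated capillaries, stood at 9.53 against 10.17, 10.57 and 10.51. Its anlage arrays lay close together (SD 0.22, n = 3), all above the collecting duct, with a difference of −0.89 ± 0.52 (SE).

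Of the remaining surface genes Esam and Pecam1 were lowest in the collecting duct, while Cd34 and Icam2 overlapped. Esam, an adhesion molecule of endothelial junctions, stood at 11.26 against 11.78, 11.58 and 12.44. Cd34, a sialomucin of endothelial and blood progenitor cells, stood at 9.58 against 9.37, 11.83 and 12.28, so that anlage array 1 lay below the collecting duct and the other two far above. Its difference of −1.58 ± 1.16 (SE) became −2.66 without array 1. Icam2, a leukocyte ligand on resting endothelium, stood at 10.19 against 9.73, 11.26 and 10.63, and its difference of −0.35 turned to 0.01 without array 2. Pecam1, a standard endothelial marker, had 1 probe set, which was dim at 7.24 against 8.13, 7.93 and 7.71, the lowest again in the collecting duct.

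The 5 probe sets of Cd93, a receptor of endothelial adhesion and migration, disagreed within the anlage. The brightest stood at 10.74 against 12.77, 9.76 and 11.43, with array 1 the highest and array 2 the lowest. The next stood at 9.57 against 10.82, 11.82 and 11.32, with array 2 the highest and the collecting duct below all 3. Fli1 showed a like disagreement, described with the transcription factors. The positions of these probe sets along the transcripts were not used here.

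**Figure D2:**
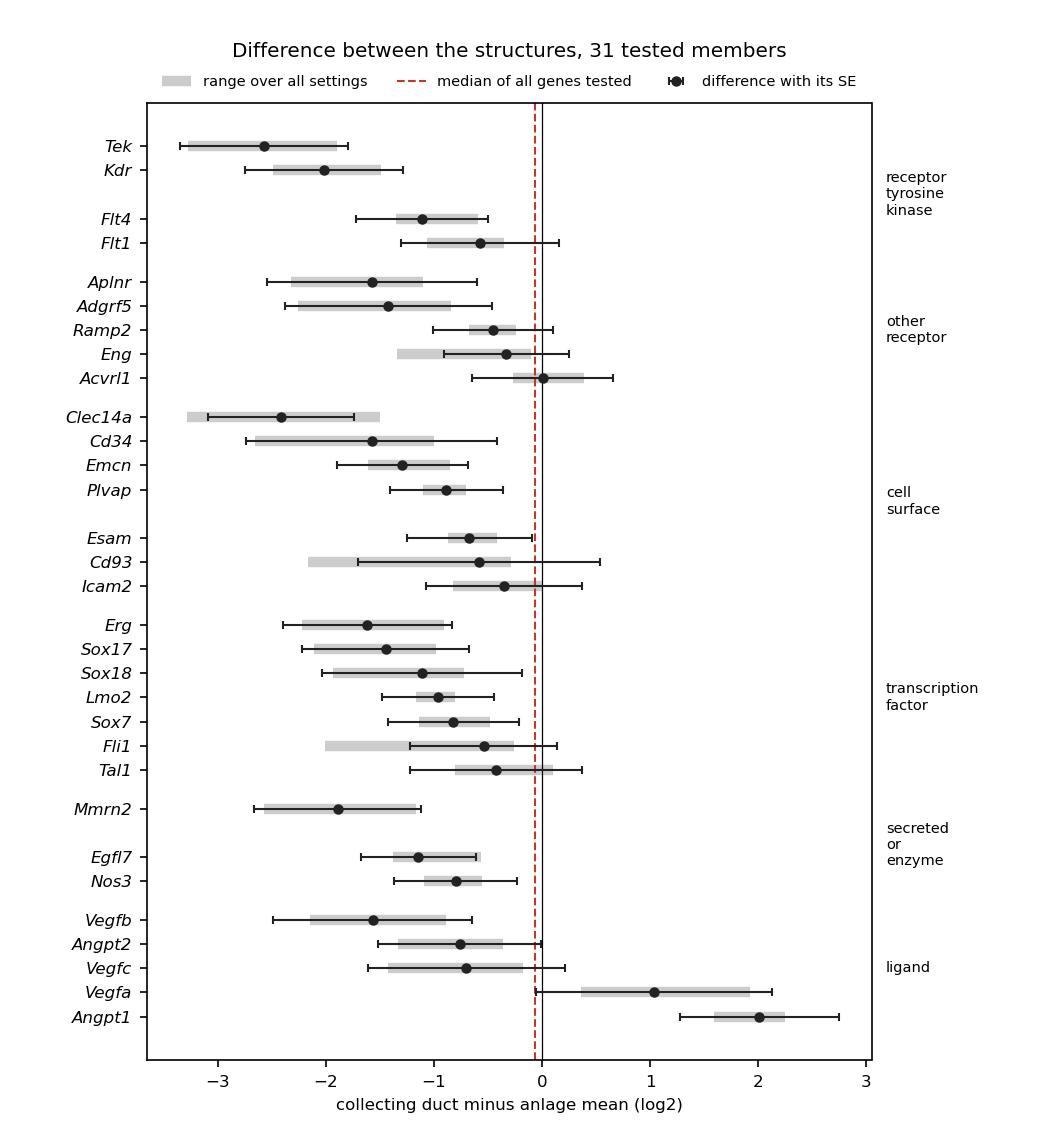
Difference between the collecting duct array and the anlage mean (log2) for the 31 tested members, with its standard error from limma (black) and the range over the main and the alternative settings (grey). The dashed line is the median of all genes tested, −0.06. Tek and Clec14a lie furthest to the left and Angpt1 furthest to the right.

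For the 7 transcription factors the collecting duct value was always under the anlage mean, and for 5 of them under all 3 anlage arrays. The shares of all genes tested were 54.9% and 24.3%, and no factor was called. Erg, an ETS factor that maintains endothelial identity, stood at 8.43 against 9.11, 10.92 and 10.10, a difference of −1.62 ± 0.78 (SE). Sox17, the SOX factor of arterial endothelium, stood at 9.12 against 9.56, 11.22 and 10.91, which is −1.45 ± 0.77 (SE). In both, array 1 lay nearest to the collecting duct and array 2 furthest. Its relatives Sox18 and Sox7 differed by −1.11 ± 0.92 and −0.82 ± 0.61 (SE). For Sox18 anlage array 1, at 8.88, lay under the collecting duct value of 9.12, while Sox7, at 7.96 against 8.42, 9.42 and 8.51, did not overlap.

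Among factors shared with blood cells, Lmo2 and Fli1 were lowest in the collecting duct and Tal1 overlapped. Lmo2, a bridging protein of endothelial and blood-forming complexes, stood at 11.14 against 11.93, 11.99 and 12.40, with a narrow anlage spread (SD 0.26, n = 3) and a difference of −0.96 ± 0.52 (SE). Tal1, its bHLH partner, stood at 9.64 against 9.43, 11.14 and 9.63. Only array 2 was above the collecting duct for Tal1, and without that array the difference of −0.42 became 0.10. Fli1, an ETS factor of endothelium and leukocytes, stood at 9.72 against 11.05, 9.83 and 9.89 in its brightest probe set and at 8.65 against 8.84, 11.16 and 9.89 in the other. The collecting duct was lowest in both, but the highest array was 1 in the first and 2 in the second.

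Each of the 3 tested secreted or enzymatic products of endothelium was lowest in the collecting duct, as were 24.3% of all genes tested. Mmrn2, a matrix protein of vessels that binds Clec14a and Cd93, stood at 8.76 against 9.66, 11.36 and 10.94, a difference of −1.89 ± 0.77 (SE). All 4 of its probe sets differed in the same direction, from −1.89 to −0.23. Egfl7, a secreted factor of sprouting endothelium, stood at 10.05 against 10.94, 11.24 and 11.41, which is −1.14 ± 0.53 (SE) with a narrow anlage spread (SD 0.24, n = 3). Nos3, the endothelial nitric oxide synthase, stood at 8.76 against 9.11, 9.98 and 9.58. Vwf, the clotting factor stored in mature endothelium, was dim at 7.05 against 7.47, 9.30 and 7.84, and was above the dim limit in array 2 alone.

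The 5 ligands were mixed, 3 with a lower and 2 with a higher value, and none was called. Angpt1, the ligand that activates Tek and is made by cells around vessels, stood at 11.16 in the collecting duct against 8.24, 9.80 and 9.41 in the anlage. It lay above all 3 anlage arrays, with a difference of 2.01 ± 0.73 (SE) and a range of 1.59 to 2.25 over the settings. Its second probe set, at 9.91 against 9.32, 7.20 and 7.52, also lay above all 3, by 1.90 on average. Angpt2, the ligand made by endothelium itself that modulates Tek, stood at 9.28 against 9.12, 10.80 and 10.22, a difference of −0.76 ± 0.75 (SE) that was −1.33 without anlage array 1 and −0.36 without array 2. The collecting duct thus had the highest Angpt1 value and the lowest Tek value of the 4 arrays.

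Vegfa, the main VEGF of kidney epithelium and podocytes, differed more within the anlage than between the structures in its brighter probe set, but not in its second. Its brighter probe set stood at 13.66 in the collecting duct and at 14.27, 11.33 and 12.27 in the anlage, a difference of 1.04 ± 1.09 (SE) that was 1.93 without anlage array 1 and 0.37 without array 2. As deposited, these were 12061 units against 16987, 2342 and 4769 units. The second probe set stood at 10.86 against 9.97, 10.52 and 9.85, above all 3 anlage arrays by 0.75 on average. Within the anlage the first probe set was highest where the Gapdh 3′ to 5′ ratio was lowest and lowest where it was highest. The collecting duct array, with a ratio between those of arrays 1 and 3, lay between them too by value. The second probe set did not follow this order, since its highest anlage value was in array 2, where the ratio was highest. The part of RNA length in these values was not tested.

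For Vegfb and Vegfc the collecting duct value was under the anlage mean. Vegfb, a VEGF that binds Flt1, stood at 7.66 against 10.59, 8.55 and 8.55. The collecting duct was lowest, but array 1 alone made much of the difference of −1.56 ± 0.92 (SE), which was −0.89 without it. Vegfc, the ligand of Flt4 and of lymphatic growth, stood at 9.69 against 9.15, 11.39 and 10.62, so that array 1 lay below the collecting duct. Its 3 probe sets differed by −1.10 to 0.17.

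Several probe sets were available for 18 members, and in 3 of these (Acvrl1, Flt1 and Vegfc) they disagreed in sign. Over all 62 probe sets, 55 were under the anlage mean in the collecting duct and 33 under all 3 anlage arrays, against 53.4% and 23.5% of all 34945 probe sets with 1 symbol. Among the 22 further probe sets that were not dim and were not used in the fit, 18 had a lower value and 9 lay below all 3, with a median difference of −0.53. Of all 9857 such probe sets, 48.2% had a lower value and 20.2% lay below all 3. In 10 of the 18 members the brightest probe set, the one used, had the largest absolute difference, as for Sox17 (−1.45 against −0.51), Erg (−1.62 against −0.19) and Flt4 (−1.11 against −0.07). The reverse held for Cd93 and Fli1, where a dimmer probe set differed by −1.75 and −1.31. With the probe sets of a gene averaged, the difference was −1.17 for Mmrn2, −0.90 for Erg, −0.56 for Egfl7 and −0.59 for Flt4.

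**Figure D3:**
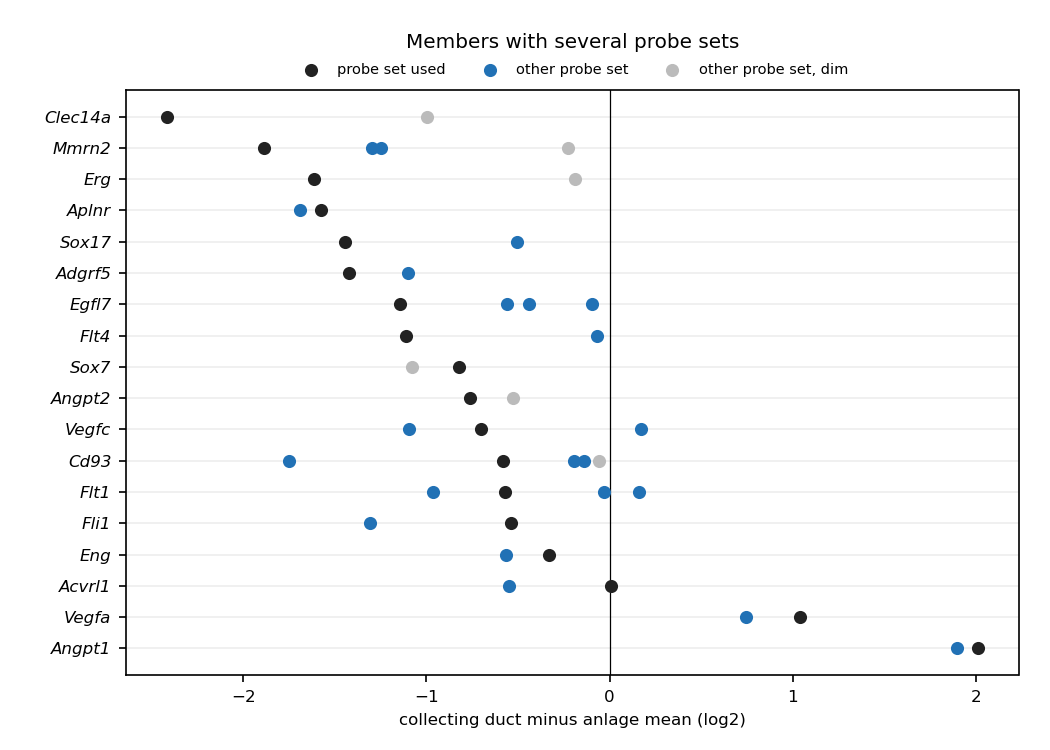
Difference between the collecting duct array and the anlage mean (log2) for each probe set of the 18 members that have several, with 1 point per probe set. Black points are the probe sets used in the fit, blue points are others, and grey points are others with a mean under 8.416. Points of 1 gene lie mostly on the same side of 0, except for Acvrl1, Flt1 and Vegfc.

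Other endothelial genes, none of them among the 34, were mostly under the anlage mean too. Of 32 tested, 29 had a lower value and 19 lay below all 3 anlage arrays. The median difference was −0.88, and limma called none. Over all genes tested, 54.9% had a lower value and 24.3% lay below all 3, with a median difference of −0.06. Adgrl4, an adhesion receptor of sprouting vessels, stood at 7.13 against 8.20, 9.33 and 9.64, below all 3 anlage arrays. Gja4, the gap junction protein connexin of arterial endothelium, differed by −1.89 ± 0.56 (SE), the endothelial surface protein gene Ecscr by −1.74 ± 0.85 and the homeobox gene Hhex by −1.73 ± 0.65. The 3 with a higher value, named after their values were seen, were Gata2 (1.47 ± 0.78), Tspan18 (0.08 ± 0.82) and Cav1 (0.01 ± 1.15). The sign turned for Tspan18 without anlage array 2 (−0.45) and for Cav1 in 5 settings, the furthest being −0.75 without array 1. Of these Gata2 alone lay above all 3 anlage arrays.

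Further ligands, co-receptors and guidance receptors of vessels were split. Of 32 tested, 19 had a lower value and 13 a higher one, with a median difference of −0.19, and limma called none. A lower value was found for 54.9% of all genes tested. Epas1, the hypoxia-regulated factor HIF-2 alpha of endothelium and stroma, stood at 10.54 against 12.40, 13.19 and 13.36 and differed by −2.44 ± 0.58 (SE), or by −1.23 with its 2 probe sets averaged. Bmper, a secreted modulator of BMP signalling, differed by −2.59 ± 1.04 and the chemokine Cxcl12 by −1.91 ± 0.52, both below all 3 anlage arrays. Efnb2, an ephrin ligand of arteries that epithelia also make, was higher by 2.05 ± 0.85, at 14.53 against 11.38, 13.56 and 12.50. It lay above all 3 anlage arrays, as Angpt1 did.

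Markers of cells found beside vessels were read in the same arrays. Of 11 vascular mural cell markers 10 were under the anlage mean in the collecting duct, 6 of them under all 3 anlage arrays. Over all genes tested these shares were 54.9% and 24.3%. The pericyte gene Rgs5 differed by −2.68 ± 1.10 (SE), at 8.86 against 9.83, 12.32 and 12.45, and the receptor Pdgfrb by −1.48 ± 0.51. With its 4 probe sets averaged Rgs5 differed by −0.99, and without anlage array 1 by −3.78 in the one used. The smooth muscle genes Acta2 and Myh11 stood apart in anlage array 3, at 16.17 and 13.13 against 12.57 and 7.87 in the collecting duct. The summed normalized signal of the list was 17139 units in the collecting duct and 24671 to 107029 units in the anlage. The highest anlage value of the 31 tested members was in array 2 for 18 of them, Tek, Erg, Sox17 and Mmrn2 among them, and in array 3 for 7, Kdr and Cd34 among them. Of all genes tested, 45.7% and 27.0% had their highest anlage value there. The part of mural cells in the differences was not tested.

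Interstitial stroma markers were split. Of 11, 7 had a lower value, as did 54.9% of all genes tested. None lay below or above all 3 anlage arrays, where 24.3% and 17.3% of all genes tested did. Their summed signal was 179352 units in the collecting duct against 138995 to 373583 in the anlage, the highest in array 3. The matrix gene Lum stood at 8.92 against 8.12, 10.10 and 14.66. The mesenchymal factor Tbx18 stood at 9.97 against 7.84, 9.73 and 13.92, so that array 3 stood apart for both. Dcn differed by −0.74 ± 1.51 (SE) and Postn by 0.91 ± 1.06.

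Markers of blood cells were dim in part. Of 9 erythroid markers 6 were dim, among them Hba-a1, Hba-x, Klf1 and Gata1, and the summed signal was 7221 units in the collecting duct against 6687 to 14940 units. The embryonic globin gene Hbb-y was not low, at 12.34 in the collecting duct against 11.93, 13.45 and 12.11. Slc4a1, Alas2 and Hbb-y differed by −0.69, −0.66 and −0.16. Of 13 macrophage and leukocyte markers 5 were dim, among them Ptprc, Aif1 and C1qa. In the collecting duct 7 of the 8 tested were under the anlage mean, as were 54.9% of all genes tested. The list summed to 4293 units there against 5823 to 8103 in the anlage. Csf1r, the receptor of macrophage growth factor, differed by −0.89 ± 0.60 (SE), Tyrobp by −1.12 ± 0.85, Cd68 by −0.71 ± 0.49 and C1qb by −0.65 ± 0.54. Of 4 lymphatic markers Prox1, the factor that defines this lineage, was dim, Lyve1 differed by −1.35 ± 0.69 and Pdpn by 0.16 ± 0.52, and the fourth, Flt4, is given above. The list summed to 4342 units in the collecting duct against 4361 to 5651 in the anlage. Its brightest gene in every array was Pdpn, at 11.82 against 11.92, 11.64 and 11.44, so the sum largely follows this gene. Lyve1 and Flt4 lay below all 3 anlage arrays, as did 24.3% of all genes tested.

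Podocyte markers, read because podocytes secrete VEGF, were mixed. Of 7 tested 3 had a lower value and 4 a higher one, Nphs1 was dim, and the summed signal was 86024 units in the collecting duct against 40979 to 75654 in the anlage. Without Npnt it was 54265 units against 73325, 47460 and 35083, so that anlage array 1 was then the highest. The brightest gene of that rest in every array was Cdkn1c, at 15.44 against 15.96, 14.19 and 14.63, so the sum largely follows this gene. Npnt, an integrin ligand also made by ureteric epithelium, was higher by 2.55 ± 0.85 (SE) and Ptpro, a receptor phosphatase, lower with a difference of −2.04 ± 0.63, which were 1.54 and −0.98 with probe sets averaged. Synpo differed by −0.58 ± 0.91 and Cdkn1c by 0.51 ± 0.69. Their part in the Vegfa values was not tested.

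**Figure D4:**
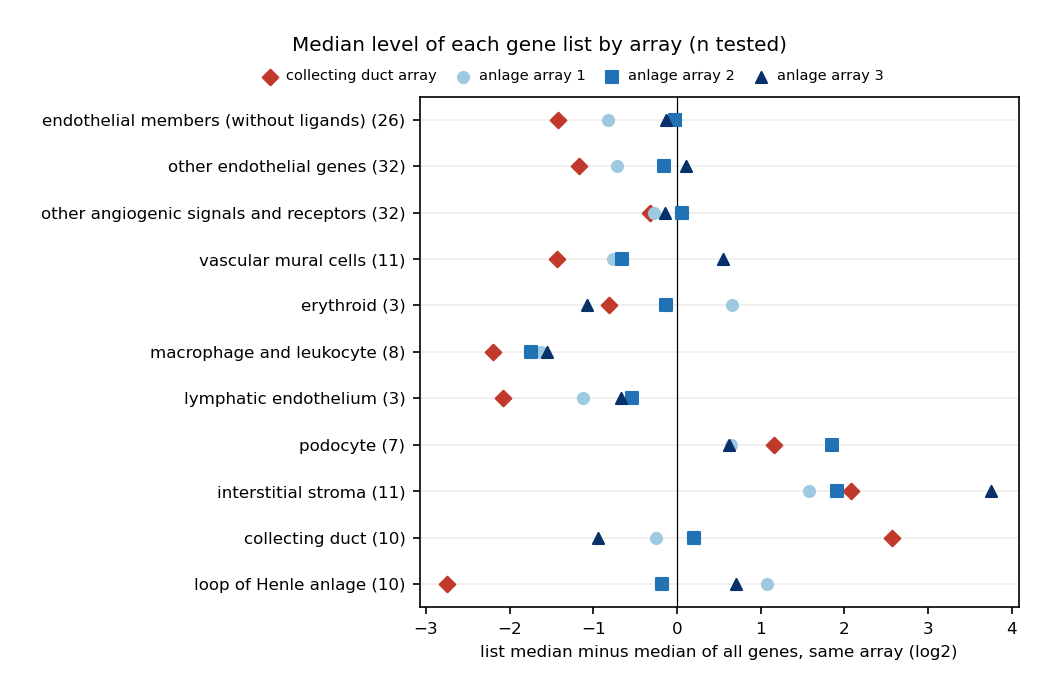
Median log2 value of the tested members of each gene list minus the median of all genes in the same array, 1 symbol per array, with the number of tested genes in brackets. Symbols are to be compared within a row only. In both endothelial rows and the mural row the collecting duct symbol lies furthest to the left, and in the endothelial rows anlage array 1 comes next. The collecting duct symbol is also the leftmost in the macrophage, lymphatic and loop rows and, narrowly, in the row of other angiogenic signals and receptors.

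Set against all genes of the same array, the 26 tested members other than ligands had a median of −1.42 in the collecting duct. In the anlage it was −0.82, −0.03 and −0.13. Anlage array 1 thus lay between the collecting duct and the other anlage arrays. The 31 tested members spread more within the anlage (median SD 0.81, n = 3) than all genes did (median SD 0.46). The median difference of the members, −0.89, was −1.36 without anlage array 1, −0.82 without array 2 and −0.81 without array 3, when that of all genes was −0.19, −0.01 and −0.03. Leaving out 1 anlage array moved the difference by over 1.5 times or turned its sign for 18 of the 34 members, among them Sox18 (−1.94 without array 1), Vegfc (−0.18 without array 2) and Esam (−0.41 without array 3).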

How the data were processed

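RNA from 4 captured samples was measured on oligonucleotide arrays, and the numbers of arrays limit the precision. The deposited values are linear probe set intensity values. The submitters' processing notes name GCOS, a scanner software, whose version is not given in the sources used here. Each array had been scaled, since the mean after trimming 2% at each end was 1500 in all 4, while medians ran from 206.9 to 526.5 units.

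After quantile normalization the 25th percentile of all values, 109.6, was added to each value as an offset before taking log2. The 64 control probe sets were then left out. Symbols came from the platform table, where 34945 probe sets had 1 symbol, 932 several and 9160 none. The last 2 kinds were not used. The probe set with the highest mean stood for a gene, chosen anew in each refit. Genes with a mean under 8.416 were not tested. The structures were compared with limma 3.58.1 in R 4.3.3 (lmFit, eBayes with an intensity trend, two-sided, Benjamini-Hochberg over all 12642 genes, threshold 0.05). The residual degrees of freedom numbered 2, from the anlage, and the prior ones 4.04. The single collecting duct array was thus taken to have the spread of the anlage. It was tested on simulated data for this comparison with 12642 genes, of which true log2 changes of 1, 2, 4 and 6 were found in 0%, 0.8%, 9.2% and 46.8% of cases.

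The members and the 10 gene lists were chosen with earlier results of these data known. All 34 members are given, and of each list up to 4 tested genes with the largest absolute difference are named. Markers named as dim, and those described as named after their values were seen, fall outside this rule. Alternatives were other normalization, offset, filter, probe set choice and variance trend, and each anlage array left out.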

Additional observations from a re-analysis of the deposited data

How the results depend on the processing

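Under all 10 alternatives limma called 0 members at an adjusted p of 0.05, and 31 of the 34 members kept their direction in every alternative, the exceptions being Acvrl1, Icam2 and Tal1. The members below all anlage arrays numbered 16 of 31 tested with arrays scaled to a common median (20.4% of all genes). Under the other alternatives with all arrays they numbered 19 of 31 to 23 of 34 (19.8% to 25.2% of all genes), and 20 of 29 with probe sets averaged (23.8%). With an anlage array left out they numbered 20 of 31 to 26 of 30, when fewer arrays made the condition easier (28.5% to 47.5% of all genes). The median difference ran from −1.36 to −0.81 with an array left out and from −0.99 to −0.70 otherwise. Scaling to a common median moved the median of all genes from −0.06 to −0.24, and relative to all genes the members then lay at −0.74 in place of −0.82. The sign turned for Acvrl1 (main 0.01) with the larger offset (−0.016), with its probe sets averaged (−0.27) and with an array left out (−0.21 to 0.39), for Icam2 (−0.82 to 0.0093) and Tal1 (−0.80 to 0.10) with an array left out, the positive ends being without array 2. Of 40 other genes it turned for 6, for Pdpn with common medians (−0.053), for Cav1 with common medians (−0.40), no further normalization (−0.13) and the larger offset (−0.011), and with an array left out for Cav1 (−0.75 to 0.83), Tspan18 (−0.45 to 0.42), Hbb-y (−0.45 to 0.30), Dcn (−1.69 to 0.40) and Tbx18 (−1.95 to 1.20). Averaging probe sets moved the difference by over 1.5 times or turned its sign for 7 members and 11 other genes, and leaving out an array did for 18 and 15. Without array 1, other probe sets were chosen for Cd93, Eng, Fli1 and Flt1, with differences of −2.16, −1.35, −2.01 and −1.06. In that refit 1 residual degree of freedom was left. Without array 2 limma called 14 genes, none of them members, with the markers Scnn1g, Elf5, Kcnj1, Umod, Irx2 and Slc12a1 among them. For dim genes signal over background limits every difference. No paired analysis was possible because the structures share only the replicate number 3.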
